A study of Mus musculus with 10 samples.

Results

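The proteasome is the protein machine that degrades ubiquitin-tagged proteins, and the promoters of the genes that encode its parts were followed for 2 histone marks in retinas cultured at low and high glucose. The set held 33 genes of the 14154 autosomal genes that had a peak annotated as promoter. Its members were chosen by gene symbol alone: names beginning with Psma, Psmb, Psmc, Psmd, Psme, Psmf or Psmg and a digit, pseudogenes dropped, with 1 promoter peak a gene, the peak of highest mean level over the libraries. Of 70 peaks with such a symbol, 36 were annotated as promoter, 35 of them on autosomes, and Psmd5 and Psmc3ip had a second promoter peak that was not used. By role the set held 5 genes of the 20S alpha ring, 7 of the beta ring, 4 ATPases and 10 non-ATPase genes of the 19S cap, 3 activators, 1 inhibitor and 2 assembly chaperones. The remaining member, Psmc3ip, fits the name pattern but encodes a recombination factor that binds an ATPase of the cap, so it is not a proteasome part. All 33 peaks contained the annotated start site, and all 33 passed the filter on low values (a mean of at least 1 RPKM, reads per kilobase of peak, scaled to library size).

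Retinas came from wild-type C57BL/6J mice at postnatal day 28 and were explanted without the retinal pigment epithelium for 48 hours in Neurobasal-A medium with either 5 mM or 25 mM glucose. CUT&Tag, in which an antibody directs a transposase to a modified histone, was run on 500000 dissociated cells per assay for lactylation of histone H3 at lysine 18 (H3K18La) and acetylation at lysine 27 (H3K27Ac). The 4 groups were H3K18La at 5 mM and at 25 mM glucose, with 3 libraries each, and H3K27Ac at 5 mM and at 25 mM, with 2 libraries each, and the labels place all 10 libraries in 1 batch. The extraction text names an antibody to H3K9me3 and none to H3K27Ac, so the mark is given here as the sample titles and the study's text name it. The labels do not say which libraries came from separate animals, and the study's methods speak of biological replicates without naming their source. The p-values thus measure the spread between these libraries, which may be technical in part. For H3K27Ac alone, that spread was taken from a trend over all tested peaks and not from each promoter. The values are a mixture of all retinal cells, so fewer marked cells and less mark per cell cannot be told apart. Explants lack blood flow and the pigment epithelium, which limits them as a model of the eye.

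As background, the 20S core is a barrel of stacked rings: alpha subunits form the gate and beta subunits form the chamber in which proteins are cut. The 19S cap recognises ubiquitin chains, removes them and unfolds the substrate with a ring of ATPases. Interferon exchanges the catalytic beta subunits for the immunoproteasome subunits Psmb8, Psmb9 and Psmb10, which favour peptides for antigen presentation. Most proteasome genes are expressed in all cells, and the transcription factor NFE2L1 raises them together when degradation falls short. Photoreceptors, which renew their outer segments daily, have a high protein turnover. Histone lactylation is a mark fed by lactate, and acetylation at lysine 27 is a mark of active promoters and enhancers.

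RefSeq promoter windows of GRCm38.p6, 250 bases before to 50 after a start site, overlapped the peak of 25 members. Stretches before the start site are shown for the member of the alpha ring with the largest H3K27Ac change (Psma2), the main catalytic subunit (Psmb5), the members with the smallest H3K27Ac changes among those with a window (Psmd9, Psmd11) and an assembly chaperone (Psmg1). They are written 5′ to 3′ on the strand of the gene, with matches to the motifs named below in capitals. They lie at chr13:14613168-14613239 (plus strand), chr14:54618023-54618125 (minus), chr5:123228070-123228189 (plus), chr11:80428495-80428614 (plus) and chr16:95990961-95991080 (minus), in the order given, and no annotated exon overlaps them.
Psma2: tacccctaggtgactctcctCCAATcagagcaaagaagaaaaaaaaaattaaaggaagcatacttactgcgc
Psmb5: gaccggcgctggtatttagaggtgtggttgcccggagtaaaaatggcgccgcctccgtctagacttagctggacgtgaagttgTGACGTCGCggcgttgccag
Psmd9: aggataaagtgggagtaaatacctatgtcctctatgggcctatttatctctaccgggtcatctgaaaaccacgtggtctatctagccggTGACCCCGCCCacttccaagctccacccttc
Psmd11: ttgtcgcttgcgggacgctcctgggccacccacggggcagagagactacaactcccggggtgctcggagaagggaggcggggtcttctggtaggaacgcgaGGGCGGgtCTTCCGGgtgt
Psmg1: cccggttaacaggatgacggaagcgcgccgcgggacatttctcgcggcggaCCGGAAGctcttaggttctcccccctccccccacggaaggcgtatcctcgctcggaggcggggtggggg

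In these stretches Psma2 holds a CCAAT box, the motif of NF-Y. Psmb5 holds a match to the antioxidant response element TGACNNNGC, the type bound by NFE2L1 and NFE2L2. Psmd9 holds another match to that element, which overlaps a GC box (GGGCGG, bound by SP proteins) read on the opposite strand. Psmd11 holds a GC box and an ETS motif (CCGGAAG), and Psmg1 an ETS motif. Each motif was searched on both strands.

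Across the 25 windows, base composition was close to that of other promoters with a peak: median GC content was 59.3% against 61.7% over 8172 genes with a window in their peak. The ETS motif was found in 10 of the 25 windows (40%), against 17.0% of those 8172 windows and 8.86% of all 32851 windows. Among the 10 were Psma6, Psmc2, Psmc6, Psmd6, Psmd11 and Psmd12. Psmc3ip, which is not a proteasome part, is counted here and for the CCAAT box. The TTCNNTTTC core of interferon response elements was found in 5 windows (20% against 6.05% and 8.56%), those of Psmb3, Psmb4, Psmd9, Psme1 and Psmg4. The antioxidant element was found in 5 (20% against 15.1% and 12.4%), those of Psmb5, Psmc6, Psmd9, Psmd12 and Psme4. The CCAAT box was found in 7 (28% against 37.3% and 37.4%) and the GC box in 14 (56% against 66.1% and 35.7%). The STAT motif TTCNNNGAA (8% against 6.27% and 8.30%) and GCGCATGCG, the core bound by nuclear respiratory factor 1 (8% against 3.87% and 1.75%), were in 2 windows each, the former in Psmb8 and Psmg1. A match is a description of letters and not evidence of binding. Head-to-head neighbours, with a start of another coding gene on the opposite strand within 1000 bp upstream, were found for 3 members (9.09%, against 6.41% of 11319 coding genes): Psma2 with Mrpl32, Psmb1 with Tbp and Psmc2 with Dnajc2.

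The peaks equal in number those that the study merged from H3K18La in developing retina, so they may not have been called in these explants or for H3K27Ac, and a start site in no peak is one outside that set. The libraries differed in depth and in the share of reads inside peaks, and both touch every value below. The denominators recovered from the RPKM values ranged from 1358008 to 7424470 reads. Reads in peaks were 11.8% to 12% of a library for H3K18La at 5 mM and 31.2% to 35.0% at 25 mM, and for H3K27Ac 21.1% and 31.5% at 5 mM against 69.5% and 56.5% at 25 mM. The share of reads in peaks therefore moved with glucose in both marks, and its part in the changes reported here was not tested. Checked against markers of retina, all 8 rod markers had a promoter peak, with a summed H3K27Ac level of 52.6 to 95.1 RPKM at 5 mM and 252 to 453 RPKM at 25 mM. For H3K18La the rod sums were 12.6 to 16.7 RPKM and 59.6 to 147 RPKM, those of Müller glia markers 4.43 to 7.98 and 10.9 to 13.6 RPKM, of cone markers 7.87 to 10.2 and 23.0 to 30.0 RPKM, and of bipolar markers 1.66 to 2.93 and 2.25 to 3.47 RPKM, the last overlapping between glucose levels. Summed H3K27Ac of Müller glia markers (6 of 7 with a peak) was 14.9 to 17.2 RPKM at 5 mM and 30.5 to 36.9 RPKM at 25 mM, of bipolar markers (4 of 5) 3.92 to 5.71 and 17.3 to 30.6 RPKM, and of cone markers (4 of 6) 17.7 to 21.7 and 39.9 to 64.1 RPKM. Their part in the changes at proteasome promoters was not tested. Of 10 microglia markers only C1qa had a promoter peak, with log2 changes of 1.03 in H3K18La and 0.64 in H3K27Ac that did not pass limma's threshold.

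H3K27Ac rested on more reads than H3K18La at these promoters, and it was higher at 25 mM than at 5 mM glucose at every one of them in the deposited RPKM. The median H3K27Ac level of the members was 4.18 and 5.68 RPKM in the 5 mM libraries and 17.3 and 12.7 RPKM in the 25 mM libraries. In all 33 members both 25 mM libraries lay above both 5 mM libraries, against 79.3% of the 14154 promoters. By limma, 26 of 33 members passed an adjusted p of 0.05, all higher, against 59.7% of 12320 tested promoters, and the median log2 change was 1.47 for the members and 1.27 for all promoters. Psmb8 and Psmd6 passed the filter on low values only through the 25 mM libraries, and of the other 31 members 24 were called for H3K27Ac and 3 for H3K18La. Of the 11041 promoters that pass it at 5 mM alone, 62.9% and 28.3% were called. With libraries scaled to their reads in peaks the member median stayed positive at 0.24 (promoters 0.10). Of the members 23 stayed positive, against 57.6% of promoters, and 10 turned negative. No promoter passed, with 4 members under an unadjusted p of 0.05, against 17.5% of promoters. Without the filter on low values no promoter passed either, although 8149 of 14154 had an unadjusted p under 0.05. With all 10 libraries in 1 fit 5 members passed, against 20.3% of promoters. The 7 members not called in the fit of the 4 H3K27Ac libraries were Psma4, Psmd5, Psmd8, Psmd9, Psmd11, Psmd12 and Psme4, with log2 changes of 0.72 to 1.12.

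The count of 26 depended on which libraries were in the fit. With 1 library left in a group, the error comes from the other pair alone. Without 25 mM replicate 1 no member was called and without 25 mM replicate 2 only 1 was, where 0.00812% and 2.42% of promoters were called. Without 5 mM replicate 1 or 2 the counts were 20 and 33, where 47.7% and 75.4% of promoters were called. The member median log2 change stayed between 1.2 and 1.62 when any 1 library was left out. At 31 of the 33 members 25 mM replicate 1 was the higher of the pair (80.4% of promoters), with a median ratio of 1.44. At all 33 members 5 mM replicate 2 was the higher (80.6% of promoters), with a median ratio of 1.39. With 2 libraries a group, exact permutation cannot reach 0.05, and limma here took each peak's error from the trend over all peaks.

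H3K18La at the same promoters was low and rested on few reads. Its median level was 0.769 to 0.815 RPKM in the 5 mM libraries and 1.39 to 2.28 RPKM in the 25 mM libraries, from a median of 1 to 4 reads and 4 to 6 reads a promoter. In 13 members all 25 mM libraries lay above all 5 mM libraries (39.4%), against 45.1% of promoters. Psma4, Psmb8, Psmd5 and Psmd8 passed limma's threshold, 4 of 33 or 12.1%, against 26.6% of tested promoters. The median log2 change was 0.76 against 0.96 for all promoters, and this direction flipped to -0.13 when libraries were scaled to reads in peaks and to -0.12 when they were centred on the median peak. The medians of all promoters moved alike, to -0.02 and 0.09, and centring lowers every promoter by the same amount. Without 25 mM replicate 1 none of the 4 calls held, and without 25 mM replicate 2 or replicate 3 a single call was left, where 14.2%, 14.7% and 18.7% of promoters were called. Apart from Psmb8, which passed the filter only through the 25 mM libraries, no member was called in both marks, and Psma4, Psmd5 and Psmd8 were among the 7 not called for H3K27Ac.

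**Figure D1:**
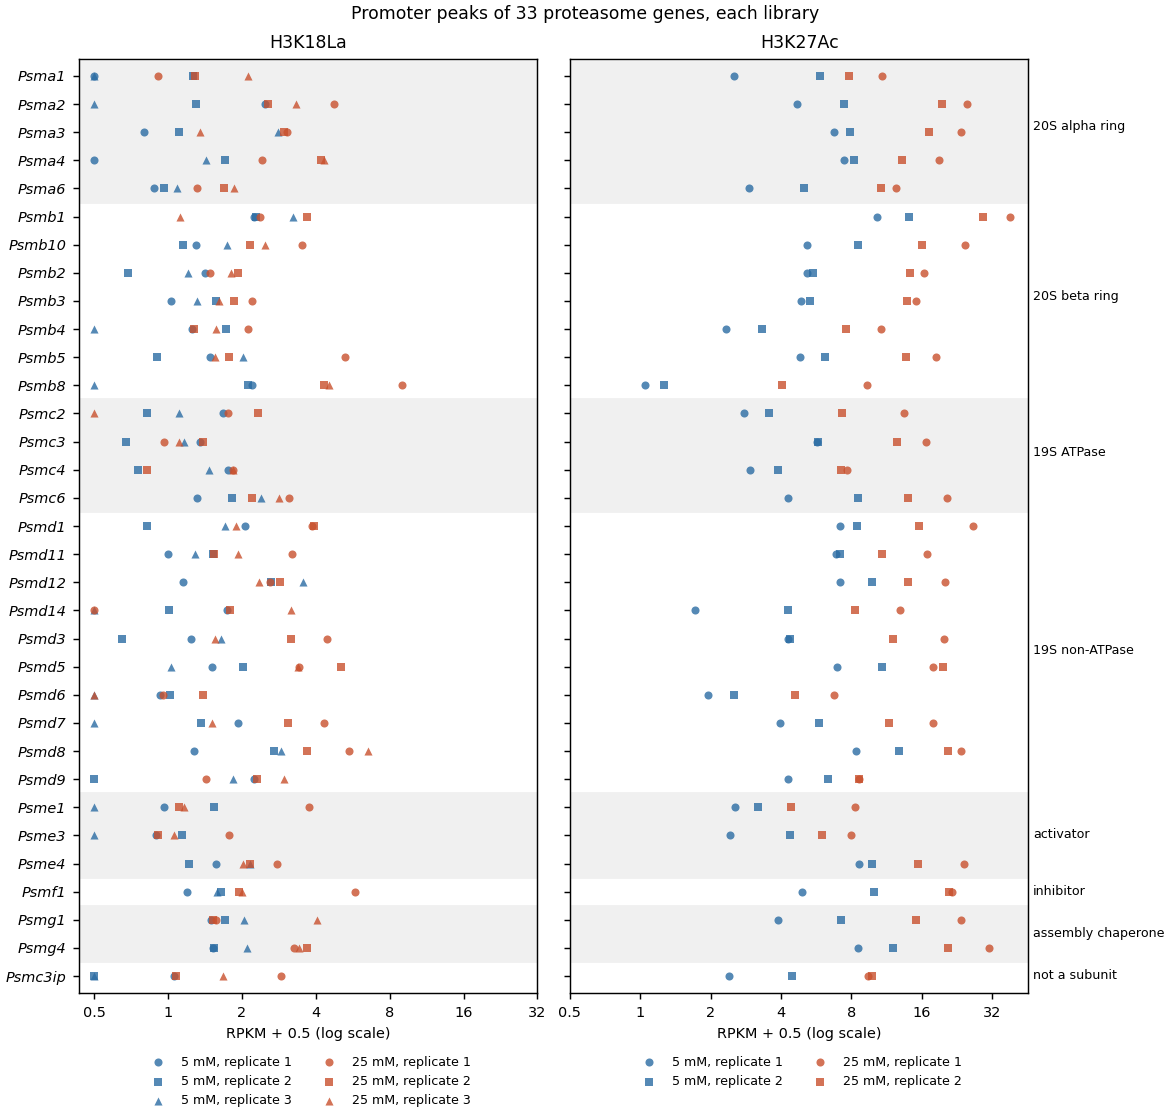
Level of each mark (RPKM + 0.5, log2-spaced axis) at the promoter peak of the 33 members, by role, with 1 point a library (blue 5 mM, orange 25 mM, marker shape the replicate). In H3K27Ac every orange point lies to the right of both blue points of its gene, against 79.3% of promoters. In H3K18La all orange points lie to the right of all blue points in 13 members, against 45.1% of promoters. The colours overlap in the other 20 of 33 members.

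Among the alpha-ring genes, which form the gate of the core, Psma2 had the largest H3K27Ac change and Psma4 the largest H3K18La change. H3K27Ac at its peak (chr13:14612914-14613633) was 4.18 and 6.93 RPKM at 5 mM and 24.5 and 19.1 RPKM at 25 mM, a log2 change of 1.91 (SE 0.49, adjusted p = 0.00209). Both high-glucose libraries stood far above both low-glucose libraries. Its H3K18La was 1.98, 0.804 and 0 RPKM at 5 mM and 4.24, 2.05 and 2.81 RPKM at 25 mM (log2 change 1.54, SE 0.60, adjusted p = 0.0679), so the groups did not overlap but the change did not pass. Psma4 was called for H3K18La and not for H3K27Ac, a difference that did not pass (interaction -0.70, SE 0.72, adjusted p = 0.916). Its H3K18La was 0, 1.21 and 0.924 RPKM at 5 mM and 1.91, 3.70 and 3.81 RPKM at 25 mM (log2 change 1.72, SE 0.56, adjusted p = 0.0363), without overlap. Its H3K27Ac was 6.96 and 7.68 RPKM against 18.5 and 12.7 RPKM (log2 change 1.02, SE 0.48, adjusted p = 0.085). Over the 5 alpha genes, 4 were called for H3K27Ac (median log2 change 1.47) and 1 for H3K18La (median 0.98), against 59.7% and 26.6% of promoters. The remaining Psma1, Psma3 and Psma6 had H3K27Ac log2 changes of 1.25, 1.47 and 1.60.

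The beta-ring genes, which build the cutting chamber, all passed for H3K27Ac, 7 of 7 (59.7% of promoters), with log2 changes from 1.46 to 2.41. Psmb8, the immunoproteasome replacement of the main catalytic subunit, had the largest fitted change of all members in both marks. Its mean over the 5 mM libraries was 0.926 RPKM, so it passed the filter on low values through the 25 mM libraries, and without the filter it was called in neither mark (adjusted p = 0.0724 and 0.125). Its peak lies at chr17:34197381-34198218 over the start of the gene. Its H3K27Ac was 0.552 and 0.769 RPKM at 5 mM, from 2 and 4 reads, and 8.79 and 3.54 RPKM at 25 mM, from 53 and 22 reads. Both 25 mM libraries were far above the 5 mM libraries, although they differed from each other by more than the low-glucose pair did. The log2 change was 2.41 (SE 0.44), or 5.30-fold on the log2(RPKM + 0.5) scale, which understates the change of a weak peak. Its H3K18La was 1.70, 1.61 and 0 RPKM at 5 mM and 8.5, 3.82 and 4.02 RPKM at 25 mM (log2 change 2.08, SE 0.59), again without overlap. Neither call held without 25 mM replicate 1, when the log2 change was 1.74 in H3K18La and 1.80 in H3K27Ac (adjusted p = 0.408), and without 25 mM replicate 2 the H3K27Ac change was 3.01. In neither mark did it hold when libraries were scaled to reads in peaks (1.17 and 1.30).

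Psmb5, the main chymotrypsin-like subunit that Psmb8 replaces, had a higher H3K27Ac level at 5 mM and a smaller fitted change. Its H3K27Ac was 4.32 and 5.68 RPKM at 5 mM and 17.9 and 13.1 RPKM at 25 mM (log2 change 1.54, SE 0.47, adjusted p = 0.00904). Its H3K18La was 0.984, 0.400 and 1.53 RPKM against 4.75, 1.28 and 1.05 RPKM (log2 change 0.80, SE 0.59, adjusted p = 0.298), with the groups overlapping. Psmb10, the other immunoproteasome subunit in the set, resembled Psmb5 more than Psmb8. Its H3K27Ac was 4.68 and 8.02 RPKM at 5 mM and 24.1 and 15.6 RPKM at 25 mM (log2 change 1.58, SE 0.49, adjusted p = 0.00915). Its H3K18La was 0.800, 0.651 and 1.24 RPKM at 5 mM and 3.01, 1.66 and 1.99 RPKM at 25 mM (log2 change 0.95, SE 0.46, adjusted p = 0.13), without overlap but not past the threshold. The difference between Psmb8 and the others was not tested.

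Psmb1, a structural beta subunit that lies head to head with the TATA-binding protein gene Tbp, had the highest mean H3K27Ac level of all members and the only negative H3K18La change. Its H3K27Ac was 9.81 and 13.7 RPKM at 5 mM and 37.7 and 28.6 RPKM at 25 mM (log2 change 1.46, SE 0.53, adjusted p = 0.0253). Its H3K18La was 1.75, 1.78 and 2.72 RPKM at 5 mM and 1.88, 3.18 and 0.622 RPKM at 25 mM (log2 change -0.25, SE 0.50, adjusted p = 0.709). The lowest H3K18La library was thus a 25 mM library, and without it (replicate 3) the log2 change was 0.22. Psmb2, Psmb3 and Psmb4, also structural, had H3K27Ac log2 changes of 1.52, 1.51 and 1.69, and none passed for H3K18La (0.71, 0.55 and 0.66).

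The ATPases of the 19S cap, the motor that unfolds substrates, all passed for H3K27Ac and none of the 4 for H3K18La (59.7% and 26.6% of promoters). Their H3K27Ac log2 changes ran from 1.14 in Psmc4 to 1.65 in Psmc2, and their H3K18La changes from 0.14 to 0.58. Psmc2 had H3K27Ac of 2.29 and 3.05 RPKM at 5 mM and 13.0 and 6.77 RPKM at 25 mM (adjusted p = 0.00351), with no overlap. Its H3K18La was 1.17, 0.318 and 0.607 RPKM at 5 mM and 1.26, 1.82 and 0 RPKM at 25 mM (log2 change 0.14, SE 0.67). The 25 mM library at 0 had the lowest value of the 6, so the groups overlapped fully. Psmc3 was similar: H3K27Ac was 5.21 and 5.23 RPKM against 16.2 and 12 RPKM (log2 change 1.34, SE 0.47, adjusted p = 0.0209). Its H3K18La was 0.855, 0.174 and 0.664 RPKM against 0.459, 0.887 and 0.608 RPKM (log2 change 0.16, SE 0.56), values of 1 to 4 reads that overlapped. In 0 of 4 ATPase genes were the H3K18La groups apart, against 45.1% of promoters.

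The non-ATPase genes, which include the ubiquitin receptors' scaffold, the deubiquitinase and assembly factors of the cap, were called in part. For H3K27Ac 5 of 10 passed, near the 59.7% of promoters (Psmd1, Psmd3, Psmd6, Psmd7 and Psmd14), and the log2 changes ran from 0.72 to 1.93. Psmd14, the deubiquitinase that strips ubiquitin chains at the cap's entrance, changed most, from 1.21 and 3.80 RPKM at 5 mM to 12.4 and 7.78 RPKM at 25 mM (log2 change 1.93, SE 0.44, adjusted p = 0.000764). Its H3K18La rested on 0 to 3 reads a library (log2 change 0.56, SE 0.76). Psmd9, an assembly chaperone of the cap, changed least: H3K27Ac was 3.80 and 5.88 RPKM at 5 mM and 8.12 and 8.11 RPKM at 25 mM (log2 change 0.72, SE 0.45, adjusted p = 0.201). Its H3K18La was 1.73, 0 and 1.34 RPKM against 0.928, 1.80 and 2.46 RPKM (log2 change 0.75), with overlap.

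Psmd11 and Psmd12, scaffold subunits of the cap's lid, came next from below. Psmd11 had H3K27Ac of 6.38 and 6.67 RPKM at 5 mM and 16.4 and 10.3 RPKM at 25 mM (log2 change 0.94, SE 0.48, adjusted p = 0.105). Psmd12 had 6.66 and 9.28 RPKM against 19.6 and 13.5 RPKM (log2 change 1.00, SE 0.49, adjusted p = 0.0925). In each the 25 mM libraries lay above the 5 mM pair, but by less than in most members, and with scaling to reads in peaks both changes turned negative. Their H3K18La log2 changes were 0.76 and 0.24, neither past the threshold. Psmd8, a lid subunit, had the highest mean H3K18La level of this role at 25 mM, while at 5 mM Psmd12 was higher (mean 1.93 against 1.79 RPKM). Psmd8 had 0.771, 2.20 and 2.39 RPKM at 5 mM and 4.96, 3.20 and 6.03 RPKM at 25 mM (log2 change 1.24, SE 0.43, adjusted p = 0.0425), without overlap. Its H3K27Ac was 7.90 and 12.3 RPKM against 23.1 and 20.1 RPKM (log2 change 1.09, SE 0.51, adjusted p = 0.0789). Psmd5, another assembly chaperone, passed for H3K18La with 1.01, 1.51 and 0.525 RPKM against 2.90, 4.56 and 2.88 RPKM (log2 change 1.41, SE 0.44, adjusted p = 0.0296), from 8 to 26 reads per 25 mM library. Psmd6, a lid subunit, had the lowest mean level of all members, 1.61 RPKM over the 10 libraries, and its H3K27Ac of 1.45 and 2.02 RPKM stood against 6.23 and 4.11 RPKM (log2 change 1.33, SE 0.43). Like Psmb8, it passed the filter on low values only through the 25 mM libraries (mean over the 5 mM libraries 0.884 RPKM), and without the filter it was not called (adjusted p = 0.125).

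Activators open the gate of the core without ubiquitin. Psme1, a subunit of the interferon-induced activator, had H3K27Ac of 2.05 and 2.69 RPKM at 5 mM and 7.80 and 3.91 RPKM at 25 mM (log2 change 1.08, SE 0.44, adjusted p = 0.042). Psme3, the nuclear activator, had 1.92 and 3.87 RPKM against 7.49 and 5.47 RPKM (log2 change 1.09, SE 0.44, adjusted p = 0.043). Both were just past the threshold, both were among the 3 members of lowest level, and both turned slightly negative (-0.032 and -0.041) with scaling to reads in peaks. Psme4, the large nuclear activator, had a log2 change of 1.08 that did not pass (adjusted p = 0.0764). For H3K18La none of the 3 passed, with log2 changes of 0.90, 0.58 and 0.52. Psmf1, an inhibitor of the core, had an H3K27Ac log2 change of 1.60 (SE 0.49, adjusted p = 0.009) and an H3K18La change of 0.95 that did not pass.

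The assembly chaperones Psmg1 and Psmg4, which help the alpha ring to form, passed for H3K27Ac. Psmg1 had H3K27Ac of 3.39 and 6.74 RPKM at 5 mM and 23.0 and 14.7 RPKM at 25 mM (log2 change 1.83, SE 0.48, adjusted p = 0.0026). Psmg4, among the 3 members of highest level, had 8.02 and 11.5 RPKM against 30.6 and 20.1 RPKM (log2 change 1.32, SE 0.51, adjusted p = 0.0347). In both genes the pairs were well apart. For H3K18La the values of Psmg4 did not overlap (1.03, 1.05 and 1.60 against 2.76, 3.20 and 2.92 RPKM, log2 change 1.02, SE 0.40, adjusted p = 0.0673), and those of Psmg1 did (log2 change 0.30). The outsider Psmc3ip had an H3K27Ac log2 change of 1.56 (adjusted p = 0.00552). Without it the counts were 25 of 32 and 4 of 32.

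**Figure D2:**
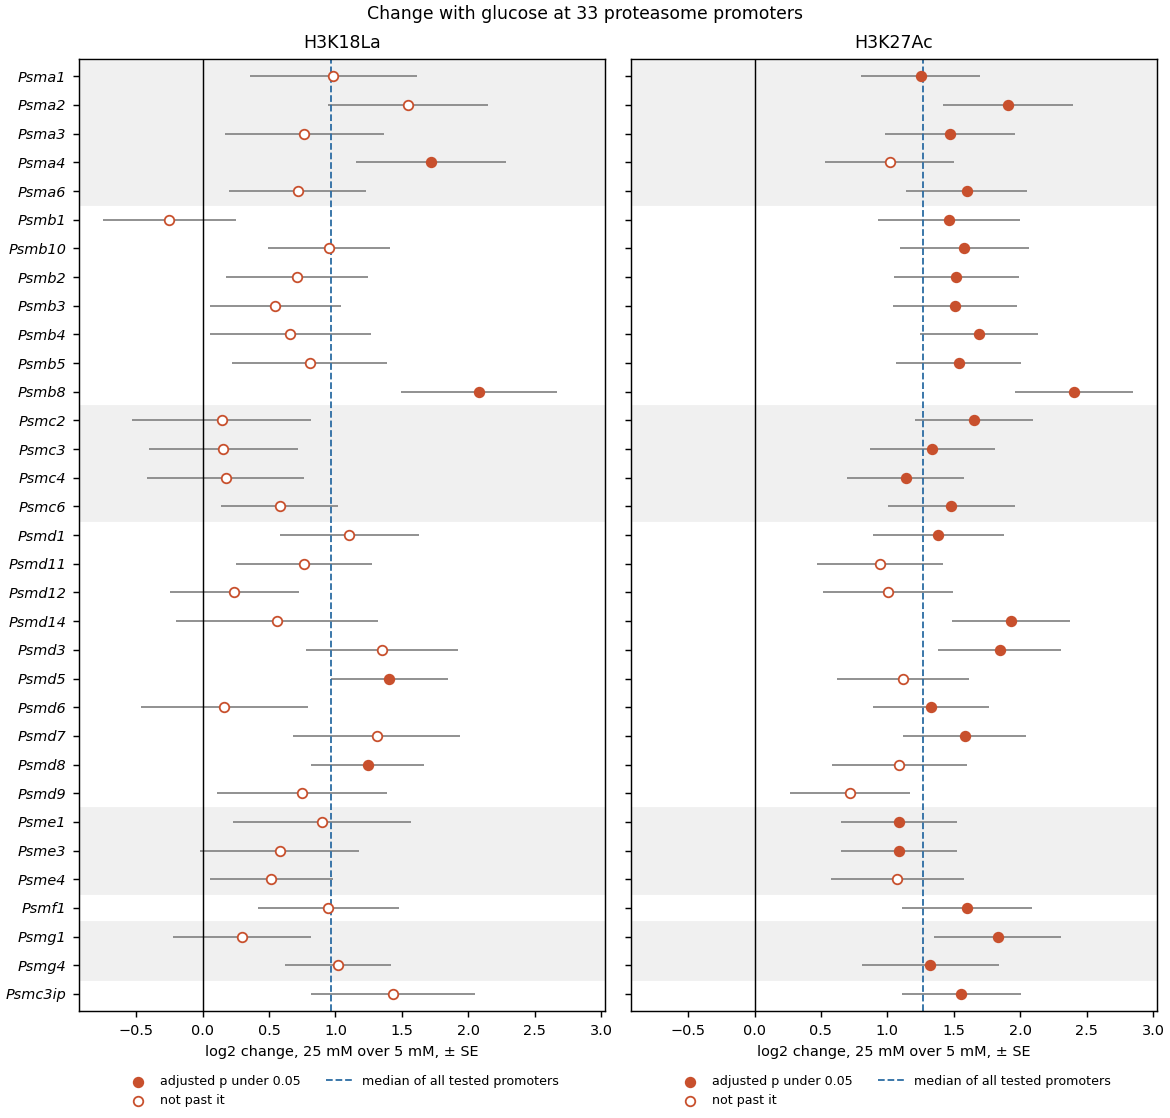
log2 change from 5 mM to 25 mM glucose (limma on log2(RPKM + 0.5), bars ± SE) at each of the 33 promoters in H3K18La (left) and H3K27Ac (right), with filled points past an adjusted p of 0.05 the dashed line at the median of 12320 promoters. Filled are 26 members in H3K27Ac, against 59.7% of promoters, and 4 in H3K18La, against 26.6%. The difference between the marks passed at no member. With scaling to reads in peaks the member median of 0.76 in H3K18La turns to -0.13, and that of 1.47 in H3K27Ac to 0.24. The promoter medians move from 0.96 to -0.02 and from 1.27 to 0.10.

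Whether the change with glucose differed between the marks was tested as an interaction over all 10 libraries. The H3K27Ac change was the larger in 29 of 33 members (87.9%), against 60.6% of promoters, with a median difference of 0.63 on the log2 scale against 0.21. The pseudocount compresses changes at low levels, and with 0.1 in place of 0.5 the member medians were 1.16 in H3K18La and 1.52 in H3K27Ac (promoters 1.35 and 1.37). No member passed the adjusted threshold (limma, smallest adjusted p = 0.903), nor did any of the 12320 promoters (0%). At an unadjusted p of 0.05 there were 2 members, Psmb1 (difference 1.71, SE 0.65) and Psmg1 (1.53, SE 0.69), against 5.32% of promoters. A difference between the marks at single members was therefore not detected with these libraries. The standard errors of the difference ran from 0.52 to 1.03.

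A rank within a library does not depend on how libraries are scaled. Among the 14154 promoters, the median H3K27Ac percentile of the members was 69.0 and 66.4 in the 5 mM libraries and 68.8 and 72.0 in the 25 mM libraries. For H3K18La it was 42.7, 39.9 and 47.1 at 5 mM and 46.8, 46.7 and 41.0 at 25 mM. In each mark the ranges of the glucose groups overlapped. The member median lay above the middle of all promoters in H3K27Ac and below it in H3K18La at both glucose levels, although 12 to 16 of the 33 members lay above the promoter median of an H3K18La library and many H3K18La values were tied at few reads. Psmb8 moved most visibly in H3K27Ac, from percentiles 9.25 and 10.3 to 47.0 and 34.1. In H3K18La it lay at 76.6, 81.5 and 13.7 at 5 mM, the last from 0 reads, and at 91.5, 81.9 and 84.4 at 25 mM.

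The members' share of all promoter reads was also computed. For H3K27Ac it was 0.233% (95% Wilson interval 0.216 to 0.253) and 0.226% (0.214 to 0.239) at 5 mM and 0.214% (0.208 to 0.221) and 0.226% (0.218 to 0.235) at 25 mM. For H3K18La it was 0.126%, 0.135% and 0.153% at 5 mM, from 56, 134 and 40 reads, and 0.116%, 0.118% and 0.109% at 25 mM, from 157, 241 and 153 reads. The H3K18La shares were lower in every 25 mM library, but their Wilson intervals overlapped (0.0973 to 0.208 across the 5 mM libraries, 0.0934 to 0.136 across the 25 mM libraries). The intervals cover counting error only.

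**Figure D3:**
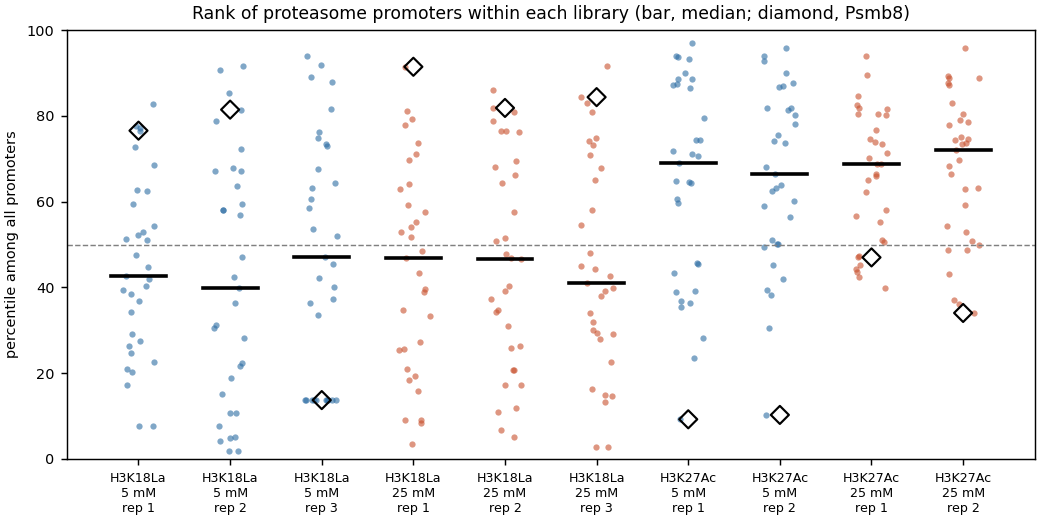
Percentile of each of the 33 promoters among 14154 promoters within each library (points, blue 5 mM, orange 25 mM, jittered sideways; black bars, median; diamonds, Psmb8). The medians stay between 66.4 and 72.0 in H3K27Ac and between 39.9 and 47.1 in H3K18La, while the Psmb8 diamond climbs in H3K27Ac.

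Other genes of the pathway came from lists. Beside the lists that follow stand the values over all promoters, 59.7% called for H3K27Ac with a median log2 change of 1.27, and 26.6% for H3K18La with a median of 0.96. Of 20 partners and regulators with a tested promoter peak, 16 were called for H3K27Ac (median log2 change 1.39) and 3 for H3K18La (0.83). Nfe2l1, the regulator of proteasome genes, had log2 changes of 1.40 in H3K27Ac (SE 0.53, adjusted p = 0.0299) and 0.03 in H3K18La (SE 0.37). Its relative Nfe2l2, the oxidative stress factor, passed in both, with 1.42 (adjusted p = 0.024) and 1.28 (adjusted p = 0.0179). Adrm1, a ubiquitin receptor of the cap, passed for H3K27Ac (1.67). The chaperone Pomp, needed to mature the beta ring, did not pass in either mark (1.03 and -0.20). All 5 ubiquitin supply genes were called for H3K27Ac (median 1.81) and 1 for H3K18La (median 0.97).

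Genes of antigen processing, which work downstream of the immunoproteasome, were called in 8 of 8 for H3K27Ac (median log2 change 1.90) and in 5 of 8 for H3K18La (median 1.92), against 59.7% and 26.6% of promoters. Only 4 of the 8 genes passed the filter on low values at 5 mM alone, of which 4 were called for H3K27Ac and 3 for H3K18La. The list includes Tap1, whose peak is also the one over the start of Psmb9 and is not among those 4. The class I genes H2-D1 and H2-K1, also not among those 4, had log2 changes of 1.99 and 1.19 in H3K27Ac and of 2.29 and 0.66 in H3K18La. Tapbp, a peptide loading factor that passed the filter at 5 mM, had 1.82 in H3K27Ac and 0.59 in H3K18La, the latter not past the threshold. Larger housekeeping families gave a comparison: 56 of 61 ribosomal protein genes and 50 of 60 respiratory chain genes were called for H3K27Ac (medians 1.53 and 1.66), and 2 and 9 for H3K18La (0.72 and 0.92). Among genes that passed the filter on low values at 5 mM alone, 24 of 31 proteasome genes were called for H3K27Ac (77.4%). The counts were 51 of 56 for ribosomal protein genes (91.1%) and 49 of 58 for respiratory chain genes (84.5%). The proteasome share lay between the 62.9% of promoters and these families, and the differences were not tested.

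Of 50 coding genes of the family in GENCODE M21, 17 were outside the set. Psmd10 lies on chromosome X (H3K27Ac log2 change 1.49, adjusted p = 0.00783). The start sites of Psmb9, Psmd13, Psme2 and Psmg2 lie in a peak that the authors assigned to a neighbour, and those of 12 genes lie in no peak, among them the catalytic subunits Psmb6 and Psmb7, for which no value can be given. Psmb9, the third immunoproteasome subunit, shares its start region with the peptide transporter gene Tap1. That shared peak had H3K27Ac of 0.689 and 0.575 RPKM at 5 mM and 15.9 and 5.37 RPKM at 25 mM (log2 change 3.12, SE 0.44). Its H3K18La was 0.847, 0.919 and 0.877 RPKM against 10.6, 6.01 and 2.01 RPKM (log2 change 2.03, SE 0.52). This peak, too, passed the filter only through the 25 mM libraries (mean over the 5 mM libraries 0.782 RPKM), so its changes are a description. In both marks every 25 mM library lay above every 5 mM library. The peak holding the start of Psme2, the partner of Psme1 in the interferon-induced activator, was assigned to the neighbouring gene Rnf31. It had log2 changes of 2.26 in H3K27Ac (adjusted p = 0.000745) and 1.15 in H3K18La (adjusted p = 0.105). The peaks holding the starts of Psmd13 and Psmg2 had H3K27Ac log2 changes of 1.64 and 1.70, both past the threshold.

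**Figure D4:**
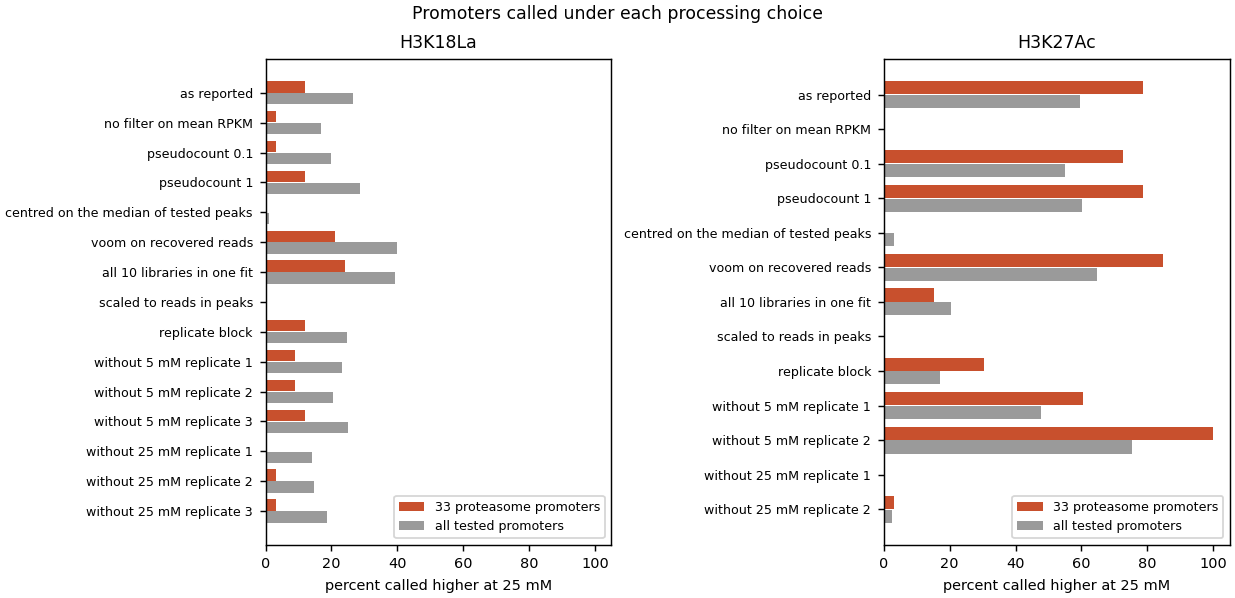
Percent of the 33 proteasome promoters (orange bars) and of all tested promoters (grey bars) called higher at 25 mM glucose by limma under each processing choice (rows), for H3K18La (left) and H3K27Ac (right). For H3K27Ac the member bar is 26 of 33 as reported, against 59.7% of promoters. It is 0 with no filter (0% of promoters), scaled to reads in peaks (0%) and centred on the median peak (3.13%).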

How the data were processed

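CUT&Tag signal for H3K18La and H3K27Ac was analysed in 10 libraries. The authors aligned reads to GRCm38 with nf-core/cutandrun, called peaks with MACS (kept when present in at least 2 replicates), annotated them with ChIPseeker 1.34.1 (promoter from -1000 to 500 bp around a start site), counted reads over merged consensus peaks (equal in number to those of H3K18La in developing retina) with csaw, and deposited RPKM values per library, not pooled. Every RPKM value was a whole multiple of the value of 1 read (tolerance 0.05), which gave reads per peak. Whether normalization factors are part of the denominators is not given in the sources used here. The authors' table of fold changes and p-values for H3K18La was not used.

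Peaks were tested with limma 3.58.1 in R 4.3.3 (lmFit, eBayes with trend, two-sided) on log2(RPKM + 0.5), each mark alone, over 72467 of 108253 peaks (mean of 1 RPKM or more over the 10 libraries), with Benjamini-Hochberg adjustment over all of them at 0.05. The interaction used all 10 libraries. This minimum was chosen with an earlier analysis of these files known, in which a fit over all peaks made no calls on test data of known answers with 2 libraries a group. The scripts were checked on simulated data. Values per library are given for the members with the 3 largest and 3 smallest log2 changes in each mark, those with the 3 highest and 3 lowest mean RPKM, and the catalytic and immunoproteasome subunits. Psmd5 and Psmg1 were added after their values were seen. The members, lists, motifs and tests were chosen with earlier results of these data known. Alternatives were pseudocounts of 0.1 and 1, no filter, voom on recovered reads, other scalings, all libraries in 1 fit, a replicate block, a threshold of 0.01, the peak nearest the start site and leaving out each library. Intervals are 95% Wilson intervals. Values of some list genes are not reported here.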

Additional observations from a re-analysis of the deposited data

How the results depend on the processing

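Of 442 single-gene comparisons over 17 genes and 18 settings, 291 kept their direction and side of the threshold, 102 kept the direction but no longer passed, 11 passed newly and 38 reversed. The interaction gave 0 calls under every setting run. For H3K18La the count of 4 became 1 without the filter (16.8% of promoters) and 1 with a pseudocount of 0.1 (20%). It became 0 when centred on the median peak (1.13%), 0 when scaled to reads in peaks (0%) and 0 at a threshold of 0.01 (11.4%). With voom it was 7 (39.8%) and with all libraries in 1 fit 8 (39.4%). Leaving out each library gave 0 to 4 (14.2% to 24.9%). For H3K27Ac the count of 26 became 0 without the filter (0% of promoters), 0 when centred (3.13%) and 0 when scaled (0%). It became 5 with all libraries in 1 fit (20.3%) and 15 at 0.01 (29.6%). With each library left out in turn, the member median log2 change stayed between 1.2 and 1.62. With the replicate block the H3K27Ac count was 10 (17.2% of promoters) and the H3K18La count stayed 4 (24.8%). Deviations of same-numbered libraries correlated by 0.0132 to 0.0288 within a mark and, between marks at 25 mM, by 0.193 and 0.0732, so the numbers were not taken to pair the libraries. The member median for H3K18La was 1.16 with a pseudocount of 0.1 (promoters 1.35), -0.12 centred (0.09) and -0.13 scaled (-0.02). That for H3K27Ac was 0.78 centred (0.57) and 0.24 scaled (0.10). Choosing the peak nearest the start site moved the H3K27Ac percentiles at 5 mM to 70.9 and 68.3. Omitting Psmc3ip, an alternative chosen after seeing the data, gave 25 and 4 calls. edgeR on recovered reads was not run.

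Among the 17 genes named by the rule, scaling to reads in peaks reversed the H3K27Ac log2 change of Psma4 -0.20, Psmd11 -0.26, Psmd12 -0.21, Psmd8 -0.14, Psmd9 -0.44, Psme1 -0.032, Psme3 -0.041. It reversed the H3K18La log2 change of Psmb10 -0.11, Psmb5 -0.23, Psmc2 -0.74, Psmc3 -0.66, Psmd11 -0.25, Psmd12 -0.93, Psmd14 -0.092, Psmd6 -0.39, Psmd9 -0.10, Psme3 -0.046, Psmg4 -0.13. Of the added genes, Psmd5 H3K27Ac became -0.10 scaled and Psmg1 H3K18La -0.81 scaled and -0.58 centred. Over all 33 members, scaling left 10 negative and 23 positive for H3K27Ac, where 57.6% of promoters were positive. For H3K18La it left 22 negative and 11 positive, where 48.8% of promoters were positive. Centring, which lowers every gene by the same amount and so reverses any smaller change, did so for H3K18La of Psmb5 -0.074, Psmc2 -0.73, Psmc3 -0.72, Psmd11 -0.12, Psmd12 -0.64, Psmd14 -0.32, Psmd6 -0.72, Psmd9 -0.13, Psme3 -0.30. A pseudocount of 0.1 reversed H3K18La of Psmc2 (-0.18), and voom that of Psmd6 (-0.15). Leaving out each library took the H3K18La log2 change across 0 for Psmb1 (-0.64 to 0.22), Psmc2 (-0.29 to 0.82), Psmc3 (-0.14 to 0.36), Psmd12 (-0.23 to 0.58), Psmd14 (-0.017 to 1.31), Psmd6 (-0.17 to 0.56). The cause of these changes was not tested. H3K18La rests on a median of 1 to 6 reads a promoter, and H3K27Ac on 2 libraries a group, which limits single genes.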
